A study of Mus musculus with 18 samples.

Results

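Desmosomes were examined in ultraviolet-driven mouse skin tumours through 10 genes of the junction, chosen by symbol as the desmogleins Dsg1a, Dsg1b, Dsg2 and Dsg3, the desmocollins Dsc1, Dsc2 and Dsc3, and the plaque genes Dsp, Pkp1 and Pkp3. All 10 were found among the 14521 named genes of the deposited table. RNA was sequenced from the skin of 6 female SKH-1E mice, an outbred hairless strain, which were adult littermates irradiated chronically with solar simulators. Each mouse gave 3 libraries, 1 from chronically irradiated skin without a lesion (CHR), 1 from a papilloma, a benign epidermal tumour (PAP), and 1 from a squamous cell carcinoma of the skin (SCC), so that each group held 6. The mice carried no engineered allele, all 3 tissues had received the same irradiation, and no unirradiated skin was analysed here. The lesions were checked by histology and were of low grade. Libraries are named by their group and the mouse number in the labels (2, 3, 7, 8, 9 and 10), and the same number marks the same animal.

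Desmosomes are the spot-like junctions that hold keratinocytes together and anchor their keratin filaments. Desmogleins and desmocollins are cadherins that meet between neighbouring cells, the armadillo proteins plakoglobin and plakophilin bind their tails inside the cell, and desmoplakin links this plaque to keratin. In epidermis the cadherins are layered, with desmoglein 3 and desmocollin 3 strongest in the basal and lower spinous layers and desmoglein 1 and desmocollin 1 strongest in the upper living layers. Desmoglein 2 and desmocollin 2 are the widespread pair of simple epithelia and heart, and are weak in healthy epidermis between follicles. The mouse carries 3 desmoglein 1 genes where humans have a single one.

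The 7 cadherin genes lie in one cluster on mouse chromosome 18, which also holds Dsg1c and Dsg4, from position 19960930 (the edge of Dsc3) to position 20604521 (the edge of Dsg2) in GRCm38, with the desmocollins on the minus strand and the desmogleins on the plus strand. Dsp lies on chromosome 13, Pkp1 on chromosome 1 and Pkp3 on chromosome 7. Of the 50-base windows in the exons of Dsg1b, 45.5% also occurred in Dsg1a, as did 31.6% of the windows of Dsg1a in Dsg1b. The division of reads between these paralogs is therefore uncertain, and some reads may have been lost in the counting. Their levels and ranks per kilobase carry that limit. Antisense transcripts cover 330 exonic bases of Dsg2 (Gm16090) and 499 of Dsp (Gm10129). The strandedness of the counting was not given in the sources used here, and such reads cannot be told apart from those of Dsg2 and Dsp.

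The libraries held 15.4 to 21.0 M recovered reads (median 18.9 M), and the lowest value of any member in a library was 268 normalised reads. The unit in the text is the normalised read count, recovered from the deposited values and divided by the size factor of the library. Tests were made with limma on log2(value + 1) of the deposited, variance-stabilised values, over all genes, with an adjusted p under 0.05 as the threshold. A difference is the second group minus the first on that log2 scale, with its SE, and a mean comes with its SD (n = 6). Differences under keratinocyte scaling are on log2(normalised reads + 1) instead, where changes of low genes come out larger.

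Papillomas held more RNA of the cadherins Dsg3, Dsc2 and Dsc3 and of 2 plaque genes than irradiated skin, and carcinomas held less of the upper-layer desmoglein Dsg1a. Of the 10 genes, 5 rose in PAP against CHR (Dsg3, Dsc2, Dsc3, Dsp and Pkp3) and 0 fell, where 51.5% of all genes tested were called, 22.8% higher and 28.7% lower. When libraries were scaled instead to 9 keratinocyte genes, Dsg3 and Dsc2 still rose whereas the differences of Dsc3, Dsp and Pkp3 turned negative. Most of these 9 are genes of basal cells, and 8 were themselves called higher in PAP. Under that scaling 13054 of all 14521 genes were called lower in PAP and 113 higher. In SCC against CHR, Dsg3 and Dsc2 rose and Dsg1a fell, where 36.5% of all genes were called, 15.1% higher and 21.4% lower. In SCC against PAP, Dsg3, Dsc3 and Dsp fell and 0 members rose, where 5.58% of all genes were called, 4.99% higher and 0.592% lower, but those 3 adjusted p lay between 0.0349 and 0.0464 and the calls were lost in several other fits, with differences of similar size except under keratinocyte scaling. The median difference of the 10 genes was 0.76, -0.018 and -0.81 in the 3 comparisons, beside 0.0014, -0.020 and -0.019 over all genes. The comparisons of PAP and of SCC with CHR share the CHR libraries. The tissue was bulk, so fewer cells of a type and less RNA per cell cannot be told apart.

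**Figure D1:**
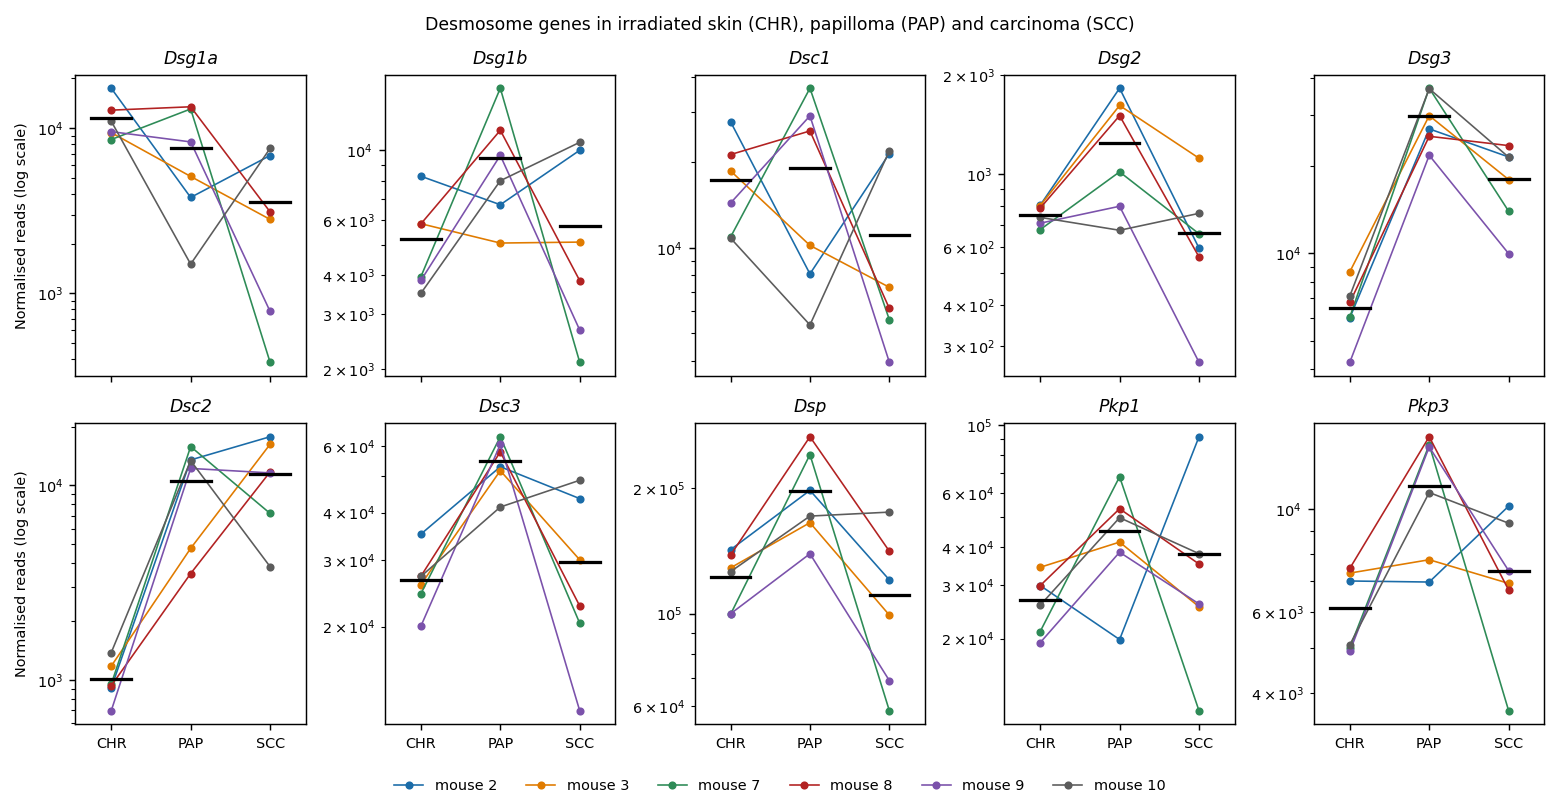
Normalised reads (log scale) of the 10 desmosome genes in irradiated skin (CHR), papilloma (PAP) and carcinoma (SCC). Each point is a library, lines join the 3 libraries of a mouse, and black bars are group means (n = 6). The CHR points of Dsg3 and Dsc2 lie below every PAP and SCC point, while the SCC points of Dsg1a spread from 383 to 7536.

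Dsg3, the desmoglein of the basal and lower spinous layers, held 4219 to 8640.3 normalised reads in CHR (median 6406). Its level was 21751 to 37009 in PAP (median 28298) and 9977 to 23490.5 in SCC (median 19686). The CHR libraries overlapped neither PAP nor SCC, and each of the 6 mice had more Dsg3 in both lesions than in its own skin. In PAP against CHR, Dsg3 rose by 2.19 ± 0.21 (limma adjusted p 3.38e-07), with folds within mice of 3.45 to 6.13. Its rise in SCC against CHR was 1.44 ± 0.21 (limma adjusted p 5.76e-05). In PAP against CHR the 6 libraries of each group did not overlap for Dsg3, Dsc2 and Dsc3, nor for 33.8% of all genes, with PAP higher in 14.4% and lower in 19.3%. In SCC against CHR they did not overlap for Dsg3, Dsc2 and Dsg1a, nor for 19.9% of all genes, with SCC higher in 8.59% and lower in 11.3%.

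Dsc2, the desmocollin common to simple epithelia, showed the largest difference of the 10 genes in both comparisons with CHR. In CHR it was the weakest desmocollin per kilobase, with 695 to 1384 normalised reads (median 943). In PAP it reached 3527 to 15847 (median 12828), and in SCC it reached 3826 to 17810.3 (median 11677). Both lesion groups stood clear of CHR, but the lesions differed among themselves, since the papillomas of mice 3 and 8 and the carcinoma of mouse 10 held 3527 to 4752 normalised reads of Dsc2 where the other lesions held at least 7184.5. Dsc2 rose by 3.12 ± 0.39 in PAP against CHR (limma adjusted p 4.58e-06), and its mean was 10.5 times that of CHR. Carcinomas gave a Dsc2 rise of 3.26 ± 0.39 against CHR (limma adjusted p 9.76e-06), with folds within mice from 2.77 in mouse 10 to 19.5 in mouse 2.

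Dsc3, the most abundant of the 7 cadherin genes per kilobase, is the main desmocollin of basal keratinocytes. Its normalised reads were 20049 to 35087 in CHR (median 26476), 41370.4 to 63429 in PAP (median 55351) and 11989.8 to 48678 in SCC (median 26345). Every papilloma exceeded every CHR library, while the carcinomas spread across and beyond the CHR range. In PAP against CHR, Dsc3 rose by 1.04 ± 0.26 (limma adjusted p 0.00269), a rise that became -0.45 (limma adjusted p 0.144) under keratinocyte scaling. The difference of Dsc3 in SCC against CHR was 0.02 ± 0.26 (limma adjusted p 0.964), with 3 mice higher and 3 lower and a 95% confidence interval of -0.52 to 0.56.

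Dsg2, the desmoglein of simple epithelia, was the weakest member per kilobase in every group. It held 678 to 804 normalised reads in CHR (median 763), 675 to 1822 in PAP (median 1259.6) and 268 to 1117 in SCC (median 627). The CHR libraries were close together, with an SD of 52.8, whereas those of PAP had an SD of 472. Dsg2 was higher in the papilloma of 5 of 6 mice, with a difference of 0.58 ± 0.25 from CHR (limma adjusted p 0.0635). With the mouse as a replicate block the same difference had a limma adjusted p of 0.0355, and it also passed the threshold without mouse 9 (p 0.0253) or mouse 10 (p 0.0378).

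No suprabasal cadherin was called higher in either lesion. Dsg1a, whose protein is a main adhesion molecule of the upper epidermis and a target of pemphigus foliaceus antibodies, held 8527 to 17418 normalised reads in CHR (median 10261). In PAP the range was 1504 to 13454 (median 6674), and in SCC it was 383 to 7536 (median 2958). Every carcinoma lay below every CHR library, while the papillomas of mice 7 and 8 lay within the CHR range and that of mouse 10 was the lowest. In SCC against CHR, Dsg1a fell by 2.22 on the log2 scale (SE 0.63, limma adjusted p 0.0103), and leaving out single mice gave -2.56 to -1.82, with an adjusted p of at most 0.0496. In PAP against CHR the Dsg1a difference was -0.90 ± 0.63 (limma adjusted p 0.243), negative in 4 of 6 mice.

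Dsg1b, the second desmoglein 1 gene, ran from 3494 to 8267 normalised reads in CHR (median 4885), 5058 to 15788 in PAP (median 8816) and 2105 to 10609 in SCC (median 4465). All 3 groups overlapped. The papilloma exceeded the skin in 4 of 6 mice, with a difference of 0.82 ± 0.37 (limma adjusted p 0.0723), which passed the threshold without mouse 2 (1.05, p 0.0327). Keratinocyte scaling turned it to -0.66. Within mice, Dsg1a and Dsg1b were both lower than in skin in the papillomas of mice 2 and 3, both higher in those of mice 7 and 8, and of opposite direction in mice 9 and 10. In SCC against CHR the Dsg1b difference was -0.05 ± 0.37 (limma adjusted p 0.926, 95% confidence interval -0.84 to 0.73).

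Dsc1, the desmocollin of the upper living layers, held 10821 to 27819 normalised reads in CHR (median 16517). Papillomas spanned 5348 to 36479.9 (median 17996), on both sides of the CHR range, with mice 2, 3 and 10 lower and mice 7, 8 and 9 higher than their own skin. Carcinomas spanned 3951 to 21959.7 (median 6684), and 5 of 6 were below their own skin. Neither difference passed the threshold, with -0.10 ± 0.50 in PAP (limma adjusted p 0.879) and -0.88 ± 0.50 in SCC (limma adjusted p 0.177). The SCC difference was -1.26 without mouse 10, with a limma adjusted p of 0.0484.

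Dsp encodes desmoplakin, which ties the plaque to keratin filaments, and was the highest member per kilobase. It held 99535 to 142135 normalised reads in CHR (median 127290.0), 139032 to 264944 in PAP (median 184136) and 58543 to 174886 in SCC (median 109768). All 6 papillomas were above their own skin, although that of mouse 9 lay within the CHR range. Dsp rose by 0.66 ± 0.23 in PAP against CHR (limma adjusted p 0.0239), a call lost without mouse 7 (0.54, p 0.0642) or mouse 8 (0.60, p 0.0632) and turned to -0.83 (p 0.00123) under keratinocyte scaling. Carcinomas differed from CHR by -0.23 ± 0.23 (limma adjusted p 0.454).

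Pkp1 and Pkp3 encode plakophilins, armadillo proteins that strengthen and cluster desmosomes. Pkp3 held 4923 to 7451 normalised reads in CHR (median 6041), 6959.7 to 14379.7 in PAP (median 12273) and 3659 to 10169 in SCC (median 7138). Only the papilloma of mouse 2 lay within the CHR range, at 0.995 times its own skin. Pkp3 rose by 0.84 ± 0.23 in PAP against CHR (limma adjusted p 0.00628), which became -0.65 (p 0.00767) under keratinocyte scaling. Its difference in SCC against CHR was 0.22 ± 0.23 (limma adjusted p 0.495).

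Pkp1 held 19405 to 34273 normalised reads in CHR (median 27789.5), 19872 to 67868 in PAP (median 45649) and 11609 to 91815 in SCC (median 30567). The papilloma of mouse 2 was below its own skin while the other 5 were above theirs. The PAP difference was 0.69 ± 0.37 (limma adjusted p 0.124), and 0.95 without mouse 2 (p 0.0117). In SCC the difference was 0.26 ± 0.37 (limma adjusted p 0.613). The carcinoma of mouse 2 held 91815 normalised reads, and without all libraries of mouse 2, its skin included, the difference was -0.01.

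**Figure D2:**
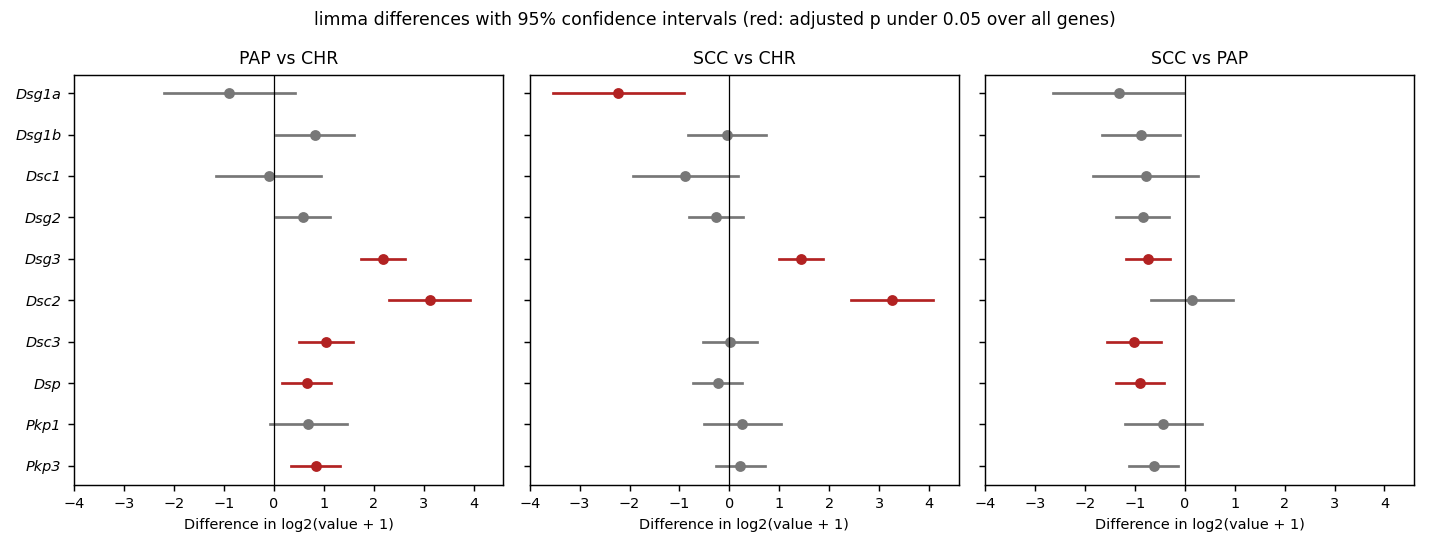
limma differences in log2(value + 1) for the 10 genes (points) with 95% confidence intervals (lines), in PAP against CHR, SCC against CHR and SCC against PAP. Red points had an adjusted p under 0.05 over all 14521 genes. Dsc2 and Dsg3 lie furthest right in both comparisons with CHR, and 9 of 10 points lie left of 0 in SCC against PAP, of which 8 stayed there under keratinocyte scaling.

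In PAP against CHR, fitting only those 2 groups added Dsg1b (limma adjusted p 0.0221), Dsg2 (0.0315) and Pkp1 (0.0345) to the 5 members called. Of all 14521 genes, that fit called 3565 higher and 4343 lower. The members' differences in papillomas were positive for Dsg2, Dsg3, Dsc2, Dsc3, the 3 plaque genes and Dsg1b and negative for Dsg1a and Dsc1, but the keratinocyte scaling turned Dsc3, Dsg2, Dsg1b and the 3 plaque genes negative.

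The makeup of the cadherin pool shifted together with the levels. These shares and ratios are descriptions without a test. Because reads of Dsg1a and Dsg1b may be divided or lost, the size of the desmoglein shares is uncertain. Per kilobase of exon, Dsg3 made up 21.9% ± 5.29 of desmoglein reads in CHR, 53.7% ± 12.2 in PAP and 58.4% ± 12.7 in SCC. Dsg1a went the other way, from 46.2% ± 5.16 in CHR to 15.6% ± 8.08 in PAP and 11.1% ± 6.24 in SCC. No CHR library overlapped a lesion in either share. Dsg1b kept a share of 29.7% ± 4.13, 28.7% ± 5.86 and 28.6% ± 7.78.

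Among desmocollins, Dsc2 took 2.33% ± 0.742 of the reads per kilobase in CHR, 13.0% ± 6.86 in PAP and 25.1% ± 12.4 in SCC. Carcinomas ranged from 5.15% in mouse 10 to 42.3% in mouse 9, where Dsc2 reached about the level of Dsc3. Dsc3 stayed at 58.4% ± 6.52, 65.2% ± 8.39 and 54.8% ± 7.42. Dsc1 went from 39.3% ± 7.16 in CHR to 21.8% ± 10.6 in PAP and 20.2% ± 7.06 in SCC.

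**Figure D3:**
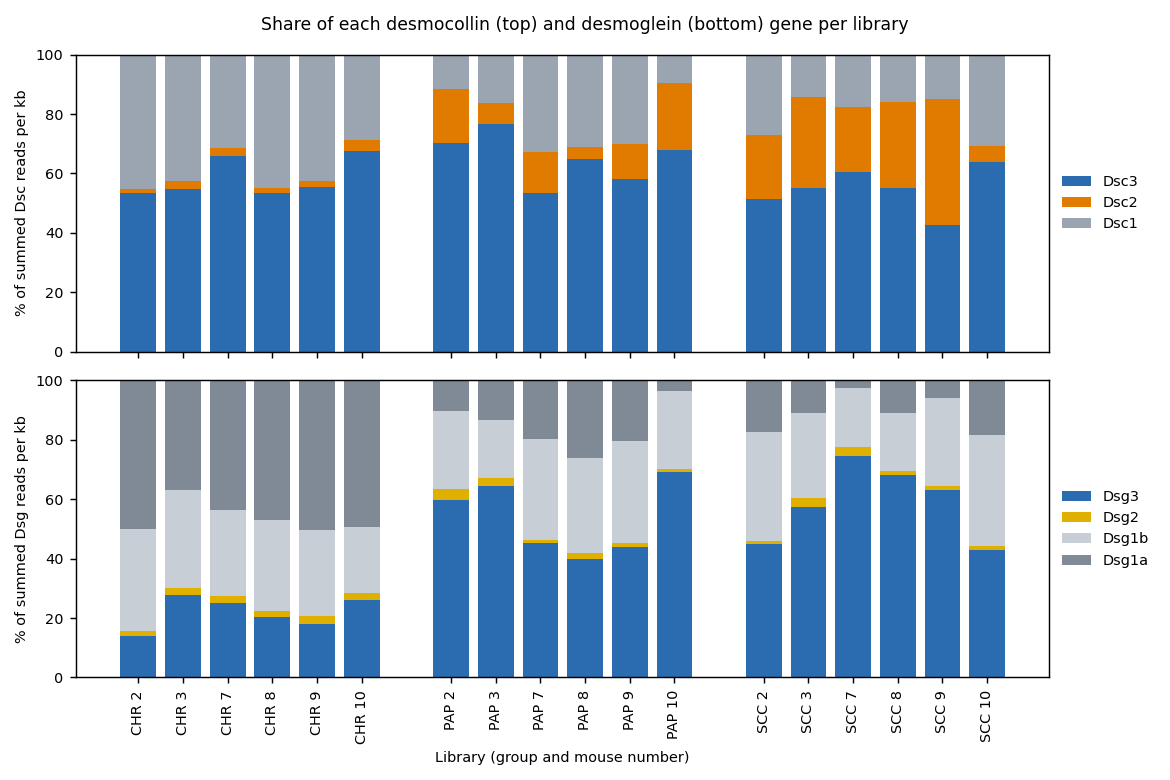
Share of each desmocollin gene (top) and desmoglein gene (bottom) in the summed normalised reads per kilobase of its family, in percent, for each of the 18 libraries. Dsc2 (orange) makes up at most 3.53% of the desmocollin reads in CHR and at least 4.05% in PAP and 5.15% in SCC, and Dsg3 (blue, bottom) makes up at least 39.8% of the desmoglein reads in every lesion and at most 27.8% in CHR.

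The 3 suprabasal cadherins were compared with the other 4 within mice as a log2 ratio, taken from the mean log2 of Dsg1a, Dsg1b and Dsc1 against that of Dsg2, Dsg3, Dsc2 and Dsc3. Its mean in CHR was 1.53 ± 0.43, that in PAP -0.30 ± 0.94 and that in SCC -0.68 ± 0.95. It was lower in the papilloma than in the skin of 6 of 6 mice, by -1.83 ± 0.9999 on average, and lower in the carcinoma of 6 of 6 mice, by -2.21 ± 1.01. Between carcinoma and papilloma the ratio had no common direction, being lower in 4 mice and higher in 2. Because it is a ratio within a library, library scaling does not enter it.

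Desmogleins and the pair of Dsc1 and Dsc3 were then taken apart. The log2 ratio of Dsg1a plus Dsg1b to Dsg3 changed by -2.27 ± 0.82 in papillomas and -2.61 ± 0.87 in carcinomas against the skin of the same mouse, in 6 of 6 mice each. The log2 ratio of Dsc1 to Dsc3 changed by -1.15 ± 0.998 in papillomas and -0.91 ± 0.66 in carcinomas, in 5 of 6 mice each. For Dsg1b alone against Dsg3, the changes were -1.37 ± 0.71 (6 of 6 mice) and -1.51 ± 0.85 (5 of 6 mice). A pair of ratios was added after the values had been seen. Dsc2 against Dsc3 rose on the log2 scale by 2.17 ± 1.01 and 3.34 ± 1.44, and Dsg1a against Dsg1b changed by -1.75 ± 1.22 and -2.24 ± 0.89, each in 6 of 6 mice.

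Per kilobase of exon, Dsp was the highest and Dsg2 the lowest gene in all 3 groups. In CHR the order of the means was Dsp (12667 normalised reads per kb), Pkp1 (5316), Dsc3 (4925), Dsc1 (3432), Dsg1a (2013), Pkp3 (1694), Dsg1b (1312), Dsg3 (927), Dsc2 (191) and Dsg2 (91.1). Only Dsp from Pkp1, Dsg3 from Dsc2 and Dsc2 from Dsg2 were neighbours whose 6 values did not overlap. Dsg3 moved from rank 8 in CHR to rank 4 in both lesions, and Dsc2 from rank 9 to 8 in PAP and 6 in SCC, while Dsg1a went from rank 5 to 9. In PAP only Dsp from Dsc3 and Dsg1a from Dsg2 were neighbours without overlap, and in SCC every neighbouring pair overlapped. Summed over the 7 cadherin genes, normalised reads per kb were 12891 ± 3106 in CHR, 24007 ± 5743 in PAP and 14560 ± 6241 in SCC, and over the 3 plaque genes they were 19676 ± 3246, 32408 ± 7696 and 21039 ± 9045.

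Keratinocyte genes and markers of other tissues also differed between the groups, and their part in the results was not tested beyond the rescaling given here. The counts called below stand beside 22.8% of all genes higher and 28.7% lower in PAP, and 15.1% and 21.4% in SCC. With so few genes per list, a count of 1 is near those shares. The summed normalised reads of 9 keratinocyte genes were 132275 to 216740 in CHR, 398689 to 705830 in PAP and 140263 to 472019 in SCC, and 8 of the 9 rose in PAP and 7 in SCC against CHR. Most of these 9 are genes of basal cells. The 6 suprabasal keratinocyte markers measured summed to 205421 to 534648 normalised reads in CHR (median 232191), 40395 to 233810 in PAP (median 135037) and 25414 to 353928 in SCC (median 53792). Skeletal muscle genes, with 6 of 6 lower in PAP and 5 of 6 in SCC, summed to 346681 to 524439 normalised reads in CHR, 124 to 25855 in PAP and 237 to 173274 in SCC. Sebaceous gland genes were lower for 5 of 5 in both lesions (43553 to 142162 in CHR, at most 6102 in PAP and 13042 in SCC), as were myeloid genes (33582 to 54253, at most 8042 and 45325). Of the T cell genes 5 of 5 were lower in PAP and 4 in SCC, of the adipocyte genes 4 of 5 in each, and of the dermal fibroblast genes 3 of 5 in PAP and 1 in SCC. The fibroblast sum had a median of 97434 in CHR, 33998 in PAP and 114602 in SCC. It ran from 63115 to 131470 in CHR and from 11104 to 272062 in SCC, so carcinomas lay on both sides of the CHR range. The median difference of the 5 fibroblast genes in SCC against CHR was -0.86. Endothelial genes gave 2 of 4 lower in PAP and 0 lower and 1 higher in SCC (median sums 5542, 3870 and 5341), and of the hair follicle genes 1 of 5 was lower in PAP and 0 in SCC (median sums 233, 101 and 260). No marker was at 0 in all libraries of any group.

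When each library was scaled to the mean log2 of the 9 keratinocyte genes, the median of all genes moved to -1.50 in PAP against CHR, -0.98 in SCC against CHR and 0.53 in SCC against PAP. Higher and lower calls over all genes then numbered 113 and 13054, 209 and 10554, and 2711 and 3 in the 3 comparisons. On this scale Dsg3 remained higher than in CHR, by 0.71 in PAP (limma adjusted p 0.00428) and 0.51 in SCC (p 0.0353). Dsc2 remained higher by 1.72 in PAP (p 0.00158) and 2.42 in SCC (p 0.000312). Dsg1a had -2.40 in PAP (p 0.00109) and -3.23 in SCC (p 0.00031), and Dsc1 had -1.60 (p 0.00529) and -1.83 (p 0.00364). The Dsc1 difference in PAP lay close to the median of all genes (-1.50). Dsg2, Dsp, Pkp1 and Pkp3 were also called lower in both lesions, but in PAP by less than the shift of the median of all genes. In SCC, Dsg2 (-1.25) and Dsp (-1.17) lay below that median, and Pkp1 (-0.68) and Pkp3 (-0.72) above it. Dsg1b (-0.998, limma adjusted p 0.0133) and Dsc3 (-0.92, limma adjusted p 0.00897) were called lower in SCC alone, close to the median of all genes. Dsg3 and Dsc2 were thus the members higher in both lesions on either scale.

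**Figure D4:**
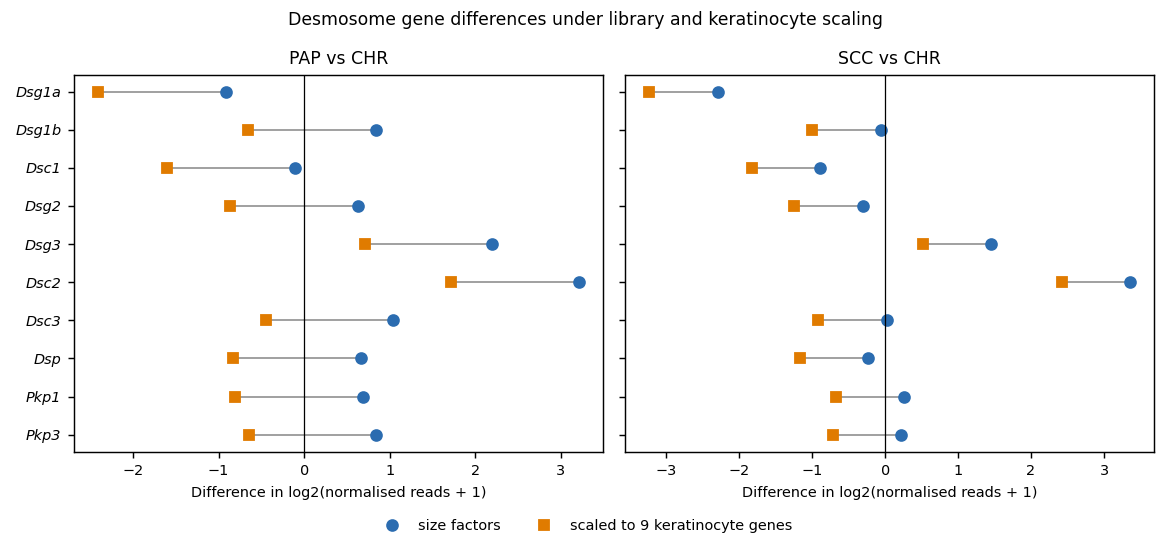
Difference in log2(normalised reads + 1) of the 10 genes in PAP against CHR and SCC against CHR, with library size factors (blue circles) and after scaling to 9 keratinocyte genes (orange squares). Lines join the 2 values of a gene. Every gene moves left under keratinocyte scaling, and Dsg3 and Dsc2 stay right of 0 in both panels.

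Between the lesions, 3 members were called and all 3 were lower in carcinomas. Dsg3 fell by 0.74 on the log2 scale (SE 0.21, limma adjusted p 0.0464), lower in 6 of 6 mice. Dsc3 fell by 1.02 (SE 0.26, limma adjusted p 0.0349), and Dsp fell by 0.89 (SE 0.23, limma adjusted p 0.0382), each in 5 of 6 mice. All 3 groups of values overlapped between the lesions, where 0.42% of all genes did not overlap. None of the 3 calls remained with limma-voom on recovered reads, where the differences were -0.75 for Dsg3, -1.03 for Dsc3 and -0.90 for Dsp (adjusted p 0.105, 0.102 and 0.102), nor with the 2 groups fitted alone. Neither of these fits called any gene, although 3088 and 2496 had an unadjusted p under 0.05. The Dsg3 call alone was also lost with log2(normalised reads + 1) (limma adjusted p 0.0563) and log2(CPM + 1) (0.0587). Keratinocyte scaling left -0.19, -0.47 and -0.34, none of them called. With the mouse as a replicate block 4 members were called lower, with Dsg2 at -0.85 added (limma adjusted p 0.0272 against 0.0574 without the block), and the number of genes called went from 810 to 1430.

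Without single mice the differences stayed at -0.87 to -0.61 for Dsg3, -1.27 to -0.76 for Dsc3 and -1.08 to -0.67 for Dsp. The Dsg3 call was lost without mouse 2 (limma adjusted p 0.0694), 3 (0.146), 7 (0.268) or 8 (0.189). The Dsc3 call was lost without mouse 3 (0.125), 7 (0.214), 8 (0.203) or 9 (0.0562), and the Dsp call without mouse 2 (0.0686), 3 (0.132), 7 (0.217), 8 (0.189) or 9 (0.0528). The fits without mouse 3, 7 or 8 called 0 of the 14521 genes with limma, where 2691, 2056 and 2220 had an unadjusted p under 0.05. Without mouse 10, Dsg1a (-2.04, p 0.029) and Dsg2 (-1.05, p 0.0156) were called lower as well. Dsc2 differed by 0.15 ± 0.39 (limma adjusted p 0.869), with 3 mice higher and 3 lower and a 95% confidence interval of -0.67 to 0.96.

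The carcinomas were unlike each other. Those of mice 2 and 10 held the highest counts of Dsg1a, Dsg1b, Dsc1, Dsc3, Pkp1 and Pkp3 in their group, and the lowest count of each member was in mouse 7 or mouse 9, except that of Dsc2, which was lowest in mouse 10. Dsg1a in the carcinoma of mouse 10 (7536 normalised reads) was 5.01 times that in the papilloma of the same mouse, whereas in mouse 7 it was 0.0294 times. The mean log2 level of the 9 keratinocyte genes was lowest in the carcinoma of mouse 7 among the lesions (-0.60 relative to the mean of all libraries, against 0.12 to 0.48 in the other carcinomas), and its part in these differences was not tested.

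Among 6 other desmosome genes, 4 rose and 1 fell in PAP against CHR and 1 rose in SCC against CHR. Under keratinocyte scaling 0 were called higher and 5 lower in each lesion. That scaling called 13054 of all 14521 genes lower in PAP and 10554 in SCC, and 113 and 209 higher. The main fit called 22.8% of all genes higher and 28.7% lower in PAP, and 15.1% and 21.4% in SCC. Jup, which encodes plakoglobin, rose by 0.90 ± 0.28 in PAP (limma adjusted p 0.0116), from 14358 ± 4045 to 27779 ± 10298 normalised reads. Perp, a membrane protein needed for desmosome assembly and the one with the most normalised reads of the 6, rose by 0.75 ± 0.23 (limma adjusted p 0.0117). Pkp4, a plakophilin relative, rose in both lesions, by 1.05 ± 0.15 in PAP (limma adjusted p 1.33e-05) and 0.89 ± 0.15 in SCC (limma adjusted p 0.000176), higher in 6 of 6 mice each time. Dsg1c rose by 0.73 in PAP at a low level (96.5 to 205 normalised reads on average), and shares 24.2% of its windows with Dsg1b. Pkp2, the plakophilin of simple epithelia and heart, fell by 0.70 in PAP (limma adjusted p 0.031), and Dsg4, the desmoglein of the hair shaft, averaged 3.30 normalised reads or fewer in each group.

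Junctions beside the desmosome were described by the same fit. Lower calls on the keratinocyte scale stand beside 13054 in PAP and 10554 in SCC among all 14521 genes. Of 6 hemidesmosome genes, 4 rose in PAP and 3 in SCC and 0 fell, and under keratinocyte scaling 2 were called higher and 3 lower in each lesion. Those that rose were the integrin subunits Itga6 (1.96 and 1.45) and Itgb4 (2.05 and 1.56), the collagen Col17a1 (1.55 and 1.20) and, in PAP alone past the threshold, Cd151 (0.42). Dst, which encodes a plakin of the hemidesmosome, had differences of 0.17 and -0.06. Of 9 adherens junction genes, 4 rose and 1 fell in PAP and 2 rose and 1 fell in SCC. Under keratinocyte scaling 1 (Cdh3) was called higher and 7 lower in each. Cdh1, Cdh3, Itga6 and Itgb4 are themselves scaling genes, so their differences on that scale are not independent of it. Cdh3, the P-cadherin of basal cells, rose by 1.96 ± 0.27 in PAP and 1.67 ± 0.27 in SCC (limma adjusted p 1.24e-05 and 0.000154), whereas Cdh1, the E-cadherin of all layers, had differences of 0.12 and -0.18 (limma adjusted p 0.579 and 0.436). Ctnnb1, with the most normalised reads, had 0.01 and 0.08, and Mllt4, which encodes afadin, fell by 0.57 and 0.58.

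Keratins form the filaments that desmosomes anchor. Of 10 keratin and plakin genes, 6 rose and 1 fell in PAP and 4 rose and 2 fell in SCC. Under keratinocyte scaling 2 were called higher and 4 lower in PAP and 1 higher and 4 lower in SCC. Of all 14521 genes, that scaling called 113 higher and 13054 lower in PAP, and 209 and 10554 in SCC. The main fit called 22.8% of all genes higher and 28.7% lower in PAP, and 15.1% and 21.4% in SCC. Krt5, Krt14, Cdh1, Cdh3, Itga6 and Itgb4 are themselves among the 9 scaling genes. The basal keratin Krt14 rose by 1.76 ± 0.28 in PAP and 0.79 ± 0.28 in SCC, and became 0.27 and -0.14 under keratinocyte scaling, while the wound-type keratin Krt6b rose by 2.66 ± 0.60 and 2.01 ± 0.60. The basal keratin Krt5 rose by 1.61 in PAP, and its SCC difference of 0.73 did not pass (limma adjusted p 0.0709). The suprabasal keratin Krt10 fell by 1.75 in PAP (limma adjusted p 0.0344) and by 2.66 in SCC (limma adjusted p 0.00475), and its partner Krt1 fell by 3.03 in SCC (limma adjusted p 0.00906) and had -1.67 in PAP (limma adjusted p 0.103). The envelope plakins Evpl and Ppl had differences of 0.51 and -0.30 in PAP and of -0.02 and -0.58 in SCC, none of which passed. Of 7 basal keratinocyte markers, 6 rose in PAP and 5 in SCC, and of 6 suprabasal markers measured, 3 fell in PAP and 4 in SCC, with Krtdap and Ivl outside the threshold in both.

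Corneodesmosomes, the form that desmosomes take in the cornified layer, involve corneodesmosin, kallikrein proteases and their inhibitor. Of 7 such genes, Klk14 rose and Klk7 fell in PAP, and Klk14 rose while Klk5 and Klk7 fell in SCC. Under keratinocyte scaling 0 were called higher and 6 lower in PAP and 1 (Klk14) higher and 5 lower in SCC. Over all 14521 genes that scaling called 113 higher and 13054 lower in PAP, and 209 and 10554 in SCC. The main fit called 22.8% of all genes higher and 28.7% lower in PAP, and 15.1% and 21.4% in SCC. The protease gene Klk7 fell by 1.16 in PAP (limma adjusted p 0.037) and by 1.60 in SCC (limma adjusted p 0.00959), with 24656 ± 6738 normalised reads in CHR and 9132 ± 5410 in SCC. Klk14, a protease gene that held 7.21 normalised reads on average in CHR, rose by 1.60 and 1.97 in log2(value + 1), higher in 6 of 6 mice in both lesions. Its differences under keratinocyte scaling, on log2(normalised reads + 1), were 2.09 (limma adjusted p 0.0538) and 3.16 (limma adjusted p 0.00902). The 2 log2 scales treat low counts differently, so these values do not show a larger rise under that scaling. Corneodesmosin itself (Cdsn) had differences of -0.54 and -0.86 (limma adjusted p 0.278 and 0.105), and the inhibitor Spink5, with the most normalised reads of the list, of -0.15 and -0.73. In SCC against PAP, the 1 gene called over these 5 lists of 38 genes was Krt14, which was lower. Of all genes, 4.99% were called higher there and 0.592% lower.

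**Figure D5:**
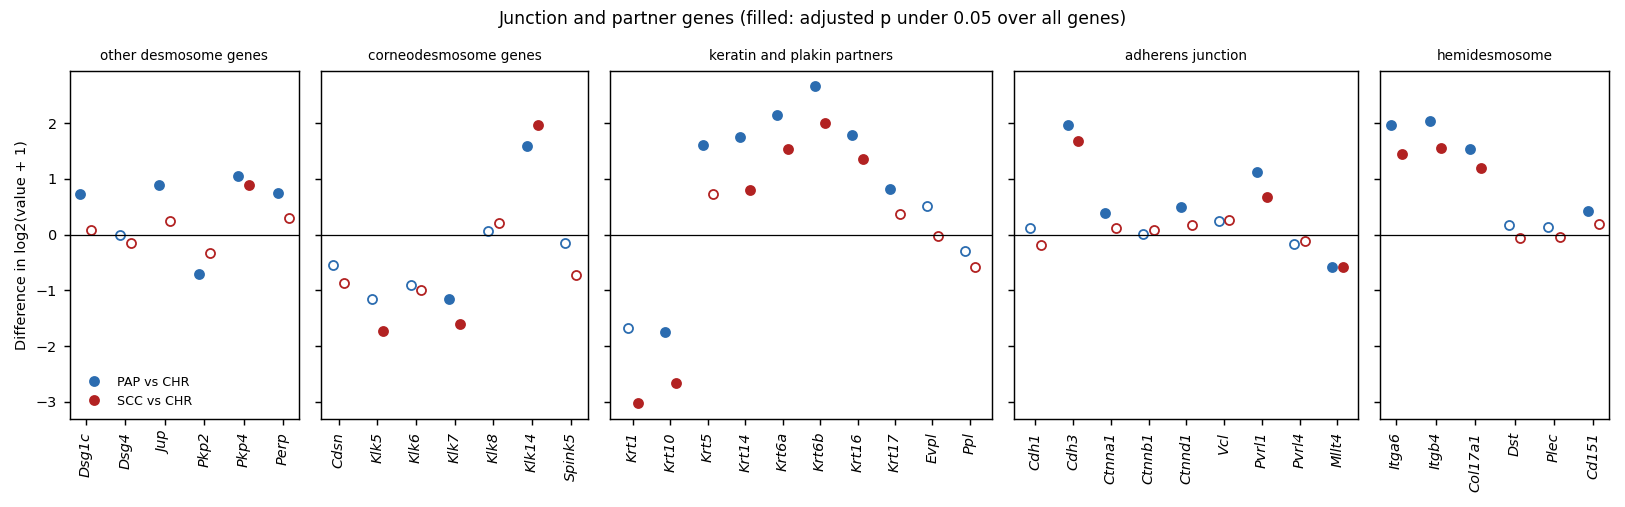
limma differences in log2(value + 1) against CHR for 38 genes of related junctions and partners, in PAP (blue) and SCC (red). Filled points had an adjusted p under 0.05 over all genes. Cdh3, Itga6, Itgb4 and Col17a1 lie above 0 and Krt1, Krt10, Klk5 and Klk7 below 0 in both lesions, as they did under keratinocyte scaling. Krt5 and Krt14 lie above 0 here and were below 0 in SCC on that scale. Cdh3, Itga6, Itgb4, Krt5 and Krt14 are themselves scaling genes.

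The genes whose pattern over the 18 libraries was most like that of a member were found by Pearson's r of log2(value + 1), as a description. The libraries form 3 groups that differ in most genes, and this raises r between any genes that differ between groups. The upper-layer gene Dsc1 was most like Abcg4 (0.94), Fam81a, Rgs20, Olfm2 and Asprv1, a protease of the upper epidermis (0.86). Dsg1b was most like its paralog Dsg1c (0.95), with which it shares sequence, followed by Glt28d2, Perp (0.89), Fam160a1 and Stap2. Nkrf (0.95), Ppard (0.95), Ankrd50, Dusp7 and Slc39a6 were nearest to Dsg3. For Dsc3 they were Ubxn6 (0.93), AI118078, Pdpk1, Pan2 and Rab18, and for Dsp they were Nhsl1 (0.93), Rab40c, Ammecr1, Fam83g and Fam160a1.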

How the data were processed

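The authors aligned paired-end reads with MOSAIK to mouse build mm10, counted them per gene with HTSeq, divided by scaling factors and applied the variance-stabilising transformation of DESeq2. The deposited values are a rounded score on the linear scale of that transformation, in which 0 reads appear as 39. Versions, annotation and strandedness were not given in the sources used here. The paper also describes a correction of the transformed counts for experimental batches, which brought the batch medians of each gene to a common value. The sample labels name no batch, and whether the deposited values carry that correction was not tested. The score was inverted to reads (zero level 39.12, size factors 0.834 to 1.18). Of values under 100, 99.9% came out as whole reads, and of all values 98%. Of 14542 entries, 21 with a number as name (at most 0.236% of a library) were left out, and 0 columns were unmapped.

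All 18 libraries were fitted together on the log2(value + 1) scale by limma 3.58.1 under R 4.3.3, with a coefficient for each group, no covariate, a two-sided moderated test and Benjamini-Hochberg adjustment over 14521 genes (threshold 0.05). Differences understate changes of low genes. On simulated data with 200 changed genes, this fit recovered 93.5% with 3.61% false calls in PAP against CHR. The simulation gave every gene and group the same dispersion and no mouse effect. In the real libraries the spread differed between genes and groups and far more genes were called, so those rates need not hold here. Alternatives were limma-voom on recovered reads, a replicate block, only the 2 groups compared, pseudocount 10, log2(normalised reads + 1), a minimum mean of 50 normalised reads, log2(CPM + 1), scaling to 9 keratinocyte genes (Krt5, Krt14, Cdh1, Cdh3, Trp63, Sfn, Lad1, Itga6 and Itgb4), and leaving out each mouse in turn. The keratinocyte scaling was applied to log2(normalised reads + 1). A count test had been kept for deposited counts and was not used.

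Same-numbered libraries come from the same mouse, and their deviations from the group means correlated at -0.25 to 0.51. No 2 libraries were copies (at most 2.24% equal values over 153 pairs). Members, gene lists and tests were chosen with earlier results of these data known. All 10 members are named, with genes of fixed lists and, for 5 members, the 5 genes of highest correlation. Symbols, positions and exon lengths are those of GENCODE M21 for GRCm38. Older symbols in the table are Pvrl1, Pvrl4, Mllt4 and Emr1, and Flg and Trac were not analysed here.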

Additional observations from a re-analysis of the deposited data

Results flagged for a closer look

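The carcinoma of mouse 2 stood apart in Pkp1, with 91815 normalised reads where the other 5 carcinomas held 11609 to 37990.1. Its gap to the next library was 0.671 of the range of the group, above the critical value of 0.625 in Dixon's test for 6 samples. That test used untransformed normalised reads and does not speak for the log2 scale of the fits. This was 1 of 30 groups tested (10 genes in 3 groups), where chance gives about 1 in 20. Without mouse 2, the Pkp1 difference in SCC against CHR went from 0.26 to -0.01 (limma).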

How the results depend on the processing

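Counts of genes called by limma in PAP against CHR (7474) and SCC against CHR (5306) moved by over 1.5 times only under keratinocyte scaling, to 13167 and 10763. Members called in PAP against CHR went from 5 to 8 with the 2 groups fitted alone, 8 higher and 0 lower. Under keratinocyte scaling they also went to 8 in PAP against CHR, but with 2 higher and 6 lower. With the 2 groups alone, 3565 of all genes were called higher there and 4343 lower. In SCC against CHR, keratinocyte scaling moved members called from 3 (2 higher and 1 lower) to 10 (2 higher and 8 lower). Genes called on the 5 related lists went from 16 to 29. In SCC against PAP, 810 genes and 3 members were called, against 0 and 0 with limma-voom, 0 and 0 with the 2 groups alone and 2714 and 0 under keratinocyte scaling. Members called there were 2 with log2(normalised reads + 1) and with log2(CPM + 1), both without Dsg3. With the replicate block they were 1430 genes and 4 members, and the block changed no member's call other than those of Dsg2. In that comparison, unadjusted p was under 0.05 for 3289 genes. Without single mice, calls ranged from 0 to 2123 genes and 0 to 5 members. The 1 related gene called there went to 0 with limma-voom, the 2 groups alone, pseudocount 10, log2(normalised reads + 1), the minimum mean of 50 reads, log2(CPM + 1) and keratinocyte scaling, and ranged from 0 to 4 without single mice.

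Keratinocyte scaling turned the sign in PAP against CHR for Dsg1b (-0.66), Dsg2 (-0.87), Dsc3 (-0.45), Dsp (-0.83), Pkp1 (-0.80) and Pkp3 (-0.65), in SCC against CHR for Dsc3 (-0.92), Pkp1 (-0.68) and Pkp3 (-0.72), and in SCC against PAP for Pkp1 (0.12). Signs also turned for values near 0 that had passed no threshold, namely Dsg1b in SCC against CHR with log2(CPM + 1) (0.0067) and, over the fits without single mice, Dsc1 in PAP against CHR (-0.47 to 0.23), Dsg1b (-0.38 to 0.11), Dsc3 (-0.145 to 0.17) and Pkp1 (-0.014 to 0.48) in SCC against CHR, and Dsc2 in SCC against PAP (-0.18 to 0.53). Apart from the keratinocyte scaling, whose sign changes follow from its construction, the cause was not tested. Isoform ratios moved by less than 1 SD with the deposited values, with pseudocount 1 and without single mice. Every member held at least 268 normalised reads in each library, whereas Dsg4 (at most 3.30 on average) and Klk14 (7.21 in CHR) rest on few reads, where depth limits precision.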
